A study of Mus musculus with 6 samples.

Results

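The genes described here encode the machinery that attaches SUMO, a small ubiquitin-like protein, to other proteins. They are the 8 rows of the count table named Sumo2, Sumo3, Sae1, Uba2, Pias1, Pias2, Pias4 and Rnf4, out of 24421 gene rows, chosen by name and not by their values. The cells were primary neural stem cells of mouse embryos at E13.5, kept as neurospheres in medium with 20 ng/ml of epidermal growth factor, 20 ng/ml of fibroblast growth factor 2 and 20% oxygen, and lysed 4 days after dissociation. The groups were 3 libraries of WT cells and 3 of Pml knockout cells, made with a 3′ tag kit that reads the end of polyadenylated transcripts. The labels do not name the knockout allele, the mouse strain or any Cre driver, and do not say whether replicates came from separate embryos or cultures. The spread that the p-values rest on may therefore be technical.

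SUMO is activated by an E1 enzyme, a dimer of Sae1 and Uba2, passed on, and transferred to target lysines with the help of E3 ligases such as the PIAS proteins. Sumo2 and Sumo3 are near-identical and form chains, which Rnf4, a ubiquitin ligase with SUMO-interacting motifs, recognises and marks for degradation. The Pml protein is itself a SUMO target, and SUMO attachment and binding organise the nuclear bodies that it builds.

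Pml had 36, 35 and 44 reads in WT replicates 1, 2 and 3 and 14, 23 and 5 in knockout replicates 1, 2 and 3. All knockout libraries lay below all WT libraries when scaled to library size (CPM), 16.2 ± 10.2 against 2.21 ± 1.53 CPM (SD, n = 3 each). By edgeR's quasi-likelihood test the log2 fold change was -2.81 (SE 0.66) and the adjusted p 0.197, above the threshold of 0.05. The authors' deposited table gives Pml a log2 fold change of -2.79 and an adjusted p of 0.00302, under the threshold. The labels do not say which part of the gene was deleted, and a 3′ tag outside that part checks nothing.

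Total counts ran from 1775152 to 4413318 in WT libraries and from 4980638 to 5917505 in knockout libraries. Rn45s, the row of the ribosomal RNA precursor, held 41.9% and 39.8% of the counts in WT replicates 1 and 2, 19.6% in WT replicate 3 and 14.6 to 17.6% in the knockout libraries. Neural stem cell markers (12 listed, all counted) summed to 8673 to 10062 CPM outside Rn45s in WT and 10385 to 13199 in the knockout. Of the 11 tested, 7 were higher and 4 lower in the knockout. For 7 neuronal markers the sums were 966 to 1268 and 965 to 1018 CPM. Of the 6 tested, 2 were higher and 4 lower. Hepatocyte markers (11 listed, all counted, none at 0 in every library) summed to 506, 704 and 163 CPM in WT replicates 1, 2 and 3 and to 85.6 to 122 in the knockout, and all 10 tested were lower there. Of 5 endothelial markers, Cldn5, Cdh5 and Tek had no read in any library. WT replicate 2 stood apart in oligodendrocyte precursor markers (1252 CPM against 2439 and 2817 in the other WT libraries). It also did in microglial markers (35.6 against 3.90 and 1.26). Its astrocyte marker sum of 640 CPM, against 275 and 258 in the other WT libraries, lay within the 399 to 666 of the knockout. WT replicates 1 and 2 both stood apart in the Rn45s share and the hepatocyte sum, so the members' results are given with and without them. In bulk RNA, fewer cells of a type and less RNA per cell cannot be told apart.

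None of the members passed the test. Of the 8, 7 had enough reads to be tested, and 0 of 7 had an adjusted p under 0.05 by edgeR, against 0.00884% of the 11317 genes tested (1 gene). DESeq2 and limma voom also called 0 of 7, against 2.9% and 0% of all genes. Voom with library quality weights called 2, Sumo3 and Sae1, in a fit that called 11% of all genes. At an unadjusted p under 0.05, Pias1 was on the higher side, where 6.7% of all genes lay, and Sumo3 and Sae1 on the lower side, where 9.19% lay. Over the 7 members, 5 had positive and 2 negative log2 fold changes, with a median of 0.34, beside a median of -0.01 over all genes tested. In the authors' deposited table none of the 7 members has an adjusted p under 0.05, and the smallest is 0.0849, for Pias1; 2.94% of the 12349 genes with a value in that table are under the threshold.

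**Figure D1:**
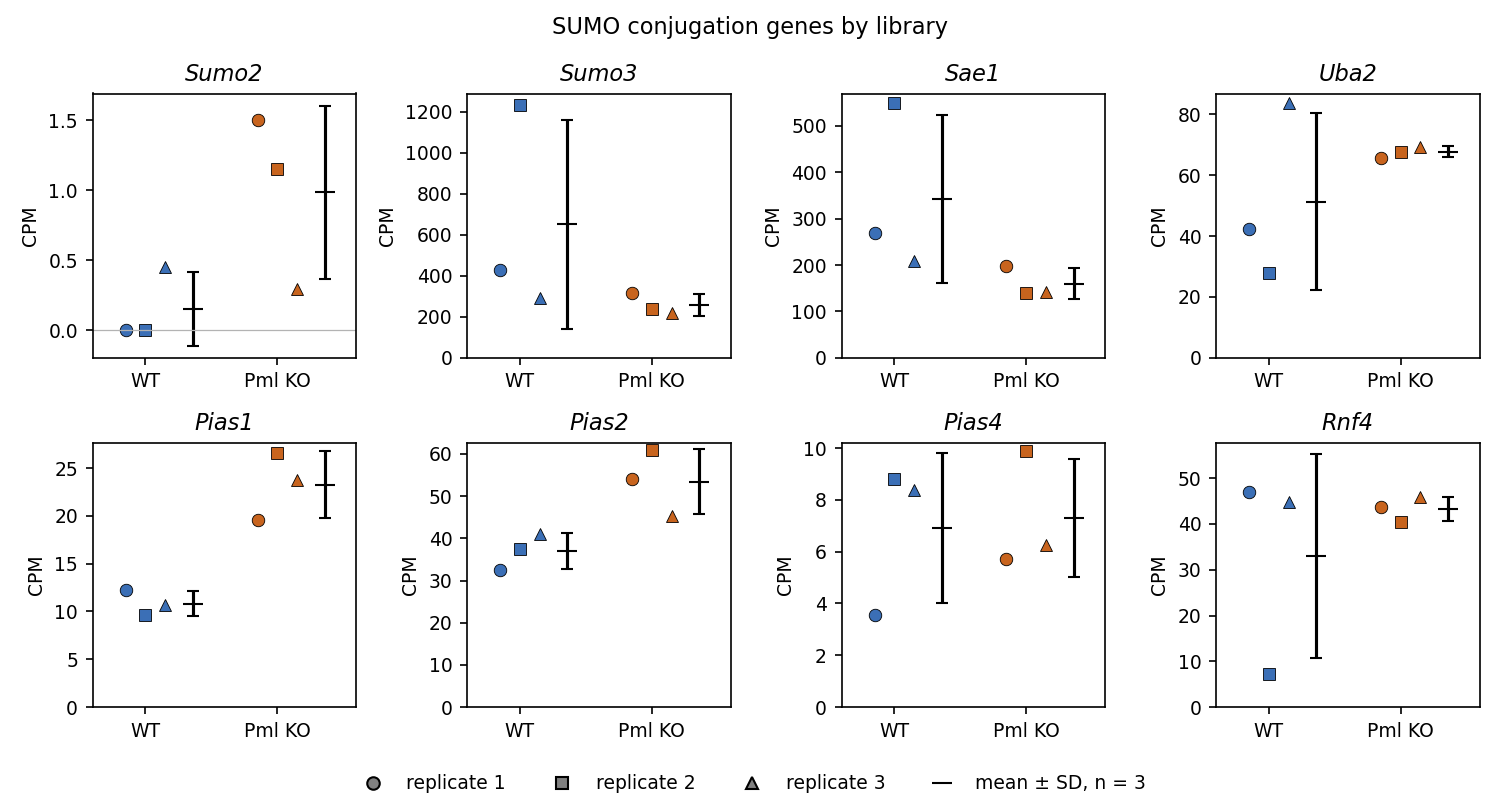
Level of each SUMO conjugation gene in CPM, by genotype; each symbol is 1 library, its shape the replicate number, and the bar is the mean ± SD of 3 libraries. Pias1 and Pias2 lie higher in every knockout library than in any WT library (12.3% of all genes tested) and Sae1 lower (11.3%). WT replicate 2 is far from the other WT libraries for Sumo3, Sae1 and Rnf4.

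The SUMO proteins themselves were read very unequally. Sumo2 (ENSMUSG00000020738.16, chromosome 11, 115523102 to 115536276, minus strand, GRCm38) was covered by 0, 0 and 2 reads in WT replicates 1, 2 and 3 and by 10, 7 and 2 in the knockout replicates. Sumo3 (ENSMUSG00000020265.16, chromosome 10, 77606097 to 77618331, plus strand, GRCm38) was covered by 1436, 1545 and 1297 reads in WT and by 2109, 1432 and 1455 in the knockout. A 3′ tag kit yields about 1 fragment per transcript, so these counts were not divided by length. Sumo2 therefore made up at most 0.486% of the reads of the pair in any library.

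The 2 genes differ in how many near-identical copies the genome annotation holds. Coding transcripts of Sumo2 matched 15 other annotated genes at 90% identity or more over at least 100 bases, of which 14 are pseudogenes. Sumo3 had 2 such matches, Pias2 and Rnf4 had 1 each, and Sae1, Uba2, Pias1 and Pias4 had 0. One of the Sumo3 matches, Gm49325, overlaps Sumo3 itself in the annotation. The deposited counts hold no row for these pseudogenes, so their levels could not be analysed here. To show how close the copies are, 60 bases of the Sumo2 coding sequence (codons 61 to 80, from GENCODE M21) are set beside the matching bases of 2 pseudogenes, on chromosomes 16 and 11, and of Sumo3; capitals mark bases that differ from Sumo2.
Sumo2: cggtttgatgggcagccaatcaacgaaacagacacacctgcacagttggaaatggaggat
Gm10241: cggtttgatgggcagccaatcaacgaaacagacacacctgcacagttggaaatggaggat
Gm11971: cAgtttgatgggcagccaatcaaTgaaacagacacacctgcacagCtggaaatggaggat
Sumo3: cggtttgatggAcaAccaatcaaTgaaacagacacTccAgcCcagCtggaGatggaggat
Gm10241 had 0 mismatches to Sumo2 in this window and Gm11971 had 3, while Sumo3 had 8. Of the 13 pseudogenes compared, 5 were identical to Sumo2 here. The longest match to each of the pseudogenes ended 566 to 623 bases before the end of the matched Sumo2 transcript. Those to Samd8 and Mir684-1, given under the other observations, ended 131 and 30 bases before it. Only annotated transcripts were searched, so sequence of the pseudogenes beyond their annotated ends was not compared. The part of any of these copies in the low Sumo2 count was not tested.

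Sumo2 could not be compared between genotypes at this depth. In WT replicate 2, a count of 0 allows up to 2.40 CPM (a floor of 3 counts), which is above the level in every knockout library (1.5, 1.15 and 0.298 CPM). In WT replicate 1 the floor was 0.893 CPM, and WT replicate 3 stood at 0.454 CPM. Both values lay below knockout replicates 1 and 2 and above knockout replicate 3. The pooled counts, 2 in WT and 19 in the knockout, gave a ratio of 4.41 with a 95% interval of 1.06 to 39.1 that covers counting error only. As a share of Sumo2 and Sumo3 reads, Sumo2 took 0.0513 ± 0.0889% in WT and 0.365 ± 0.198% in the knockout (SD, n = 3 each). The groups overlapped, and the two-sided exact permutation p was 0.2, where 3 against 3 libraries cannot go below 0.1. WT replicate 3 alone, at 0.154%, lay between the knockout libraries (0.137 to 0.486%).

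Sumo3 stood at 427, 1235 and 294 CPM in WT replicates 1, 2 and 3 and at 317, 236 and 217 CPM in the knockout libraries. WT replicate 2 was 4.20-fold above WT replicate 3, and knockout replicate 1 lay above WT replicate 3, so the groups overlapped. The log2 fold change was -1.34 (SE 0.48, 95% interval -2.42 to -0.26), with an edgeR adjusted p of 0.242. Without WT replicate 2 it was -0.49 (adjusted p 0.364), and without WT replicates 1 and 2 it was -0.20 (adjusted p 0.742). Without WT replicate 3 it was -1.69 and passed (adjusted p 0.0275), in a fit that called 12.6% of all genes. The Rn45s share and the hepatocyte markers are higher in WT replicates 1 and 2, the WT libraries with more Sumo3, and their part in this difference, and in that of Sae1, was not tested.

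The 2 subunits of the E1 enzyme had opposite signs. Sae1 (ENSMUSG00000052833.9, chromosome 7, 16320234 to 16387806, minus strand, GRCm38), a subunit that completes the adenylation domain, stood at 270, 548 and 209 CPM in WT and 198, 140 and 141 CPM in the knockout. Every knockout library lay below every WT library, as for 11.3% of all genes tested, although knockout replicate 1, at 198 CPM, was close to WT replicate 3, at 209 CPM. The log2 fold change was -1.09 (SE 0.37, 95% interval -1.92 to -0.27, edgeR adjusted p 0.239). It was -0.58 without WT replicate 2 and -0.39 without WT replicates 1 and 2 (adjusted p 0.267 and 0.455), and it passed without WT replicate 3 (-1.35, adjusted p 0.0298), again in the fit that called 12.6% of all genes.

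Uba2 (ENSMUSG00000052997.15, chromosome 7, 34140688 to 34169599, minus strand, GRCm38), which carries the catalytic cysteine, stood at 42.3, 28.0 and 83.8 CPM in WT and 65.7, 67.8 and 69.4 CPM in the knockout. The knockout libraries lay together between WT replicate 1 and WT replicate 3. The log2 fold change was 0.37 (SE 0.37, 95% interval -0.45 to 1.20, edgeR adjusted p 0.637). It was 0.92 without WT replicate 3 (adjusted p 0.0597), 0.097 without WT replicate 2 and -0.31 without WT replicates 1 and 2.

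Because both subunits were read in the same library, their ratio does not depend on library scaling. Sae1 took 86.5%, 95.1% and 71.4% of the Sae1 and Uba2 reads in WT replicates 1, 2 and 3. It took 75.1%, 67.3% and 67.1% in the knockout libraries. WT replicate 3 fell among the knockout libraries, and the difference of -14.5 percentage points had a two-sided exact permutation p of 0.2. Set against WT replicate 3 alone, the knockout mean differed by -1.52 percentage points.

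**Figure D2:**
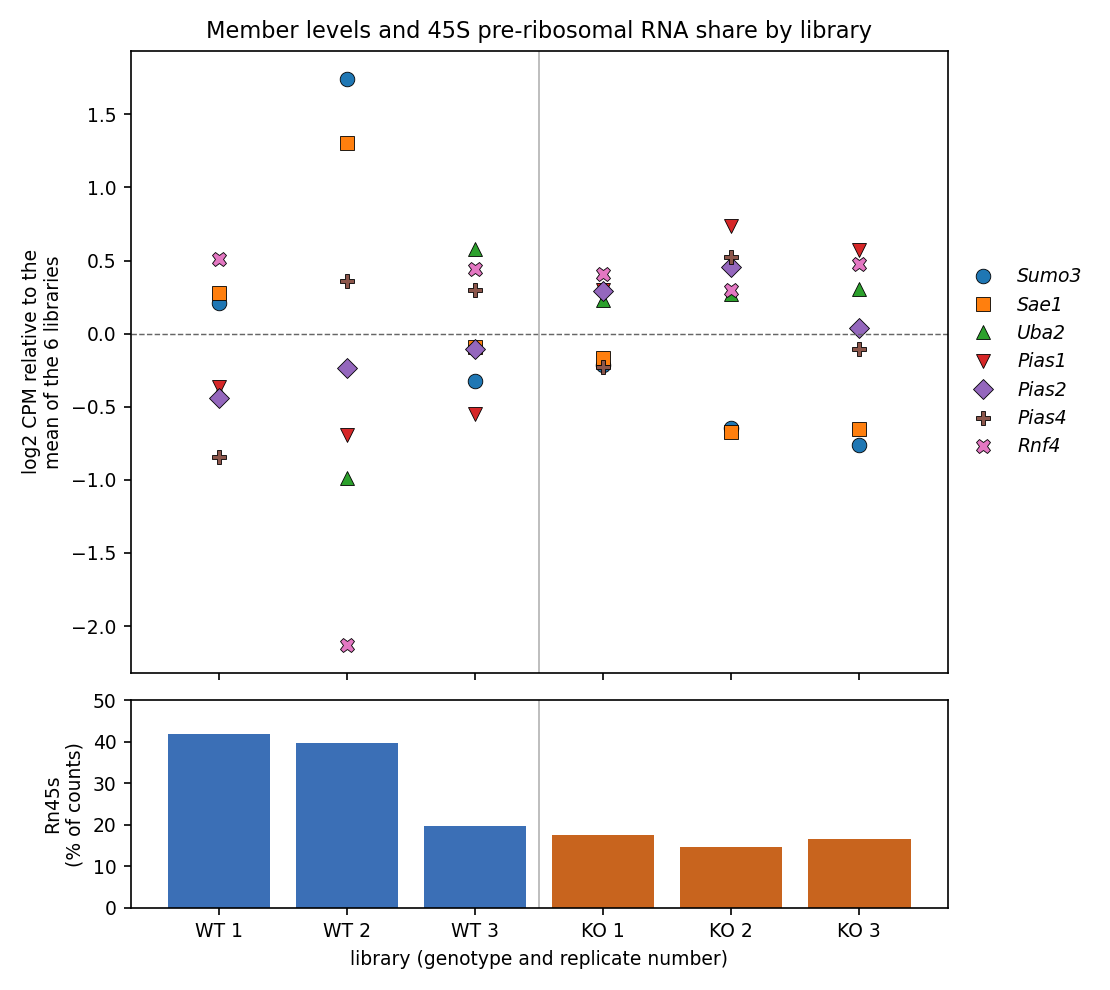
Top, log2 CPM of 7 members in each library relative to that gene's mean over the 6 libraries; bottom, the share of counts in the Rn45s row. In WT replicate 2, Sumo3 and Sae1 are at 1.74 and 1.30 while Uba2 and Rnf4 are at -0.99 and -2.13, and the knockout libraries all lie between -0.77 and 0.73.

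The PIAS ligases are E3 enzymes that help SUMO onto its targets. Pias1 (ENSMUSG00000032405.10, chromosome 9, 62878368 to 62987924, minus strand, GRCm38) was covered by 41, 12 and 47 reads in WT and by 130, 161 and 159 in the knockout. Scaled to library size it stood at 12.2, 9.59 and 10.7 CPM in WT and 19.6, 26.5 and 23.7 CPM in the knockout. The groups did not overlap, as for 12.3% of all genes tested on this side, and the WT libraries, WT replicate 2 included, were close to each other.

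The knockout mean of 23.3 ± 3.52 CPM was 2.15-fold the WT mean of 10.8 ± 1.31 CPM (SD, n = 3 each). The log2 fold change was 1.09 (SE 0.33, 95% interval 0.36 to 1.82), with an unadjusted p of 0.00736 and an edgeR adjusted p of 0.220. It was 1.12 without WT replicates 1 and 2 (adjusted p 0.121), 1.03 without WT replicate 2 and 1.06 without WT replicate 3. Pias1 did not pass under any of the 16 alternatives run, and its log2 fold change stayed between 0.99 and 1.54 in them.

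Pias2 (ENSMUSG00000025423.16, chromosome 18, 77065208 to 77153800, plus strand, GRCm38) stood at 32.4, 37.6 and 41.1 CPM in WT and 54.2, 60.8 and 45.3 CPM in the knockout. The groups again did not overlap, as for 12.3% of all genes tested on this side. The log2 fold change was 0.53 (SE 0.27, 95% interval -0.08 to 1.13, edgeR adjusted p 0.369), and 0.38 without WT replicates 1 and 2. Pias4 (ENSMUSG00000004934.14, chromosome 10, 81153266 to 81167923, minus strand, GRCm38), the lowest of the tested members, was covered by 12, 11 and 37 reads in WT and by 38, 60 and 42 in the knockout. At 3.57, 8.79 and 8.40 against 5.72, 9.89 and 6.26 CPM the groups overlapped, with a log2 fold change of 0.10 (SE 0.50, 95% interval -1.01 to 1.22, edgeR adjusted p 0.937). Without WT replicates 1 and 2 it was -0.21.

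Within the 3 ligases, Pias1 took 25.3%, 17.1% and 17.7% of the reads in WT replicates 1, 2 and 3 and 24.6%, 27.3% and 31.5% in the knockout libraries. WT replicate 1 (41 of 162 reads, 95% exact Clopper-Pearson interval 18.8 to 32.7%) lay above knockout replicate 1. The difference of 7.74 percentage points had a two-sided exact permutation p of 0.2, so a shift of the balance among the ligases was not shown. Against WT replicate 3 alone it was 10.1 percentage points.

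Rnf4 (ENSMUSG00000029110.13, chromosome 5, 34336289 to 34355629, plus strand, GRCm38) stood at 47.0, 7.19 and 44.7 CPM in WT and 43.6, 40.4 and 45.8 CPM in the knockout. In WT replicate 2 it had 9 reads, and in the other WT libraries it was at the knockout level. Its log2 fold change of 0.34 (SE 0.50, 95% interval -0.77 to 1.46, edgeR adjusted p 0.753) was -0.083 without WT replicate 2 and -0.048 without WT replicates 1 and 2. The spread of Rnf4 over the WT libraries, 6.54-fold from lowest to highest, was reached by 12.2% of all genes tested, and in the knockout it was 1.13-fold.

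**Figure D3:**
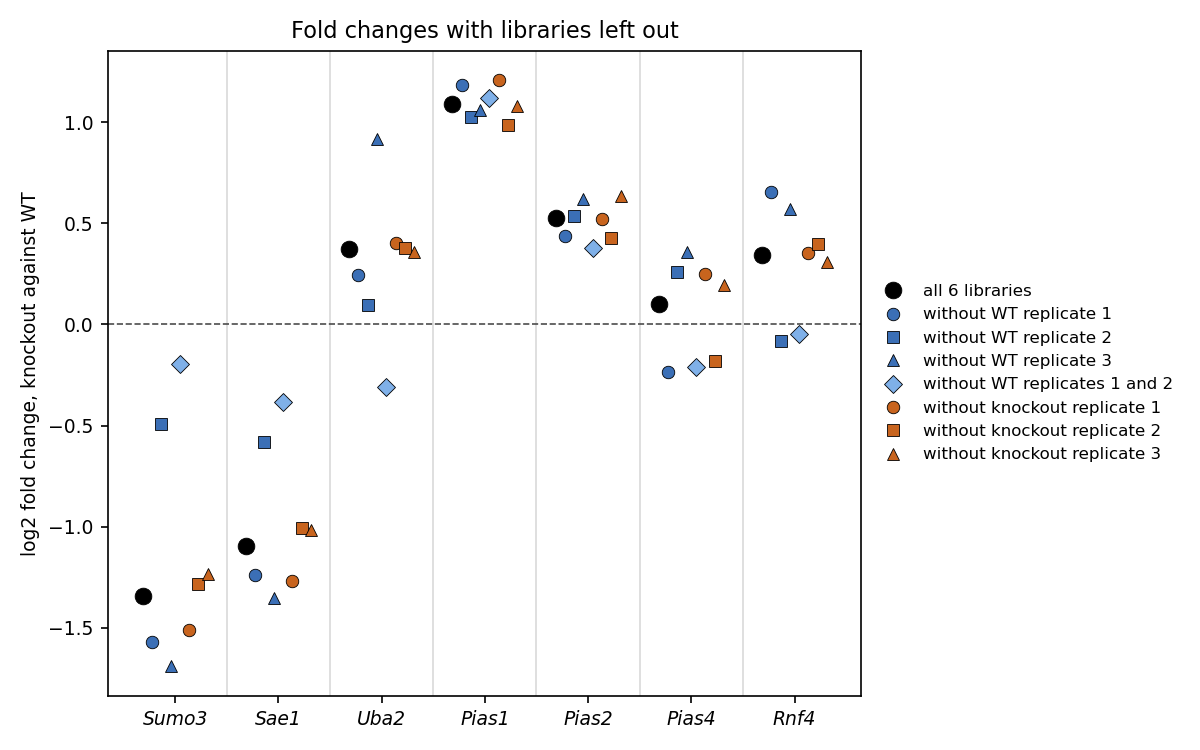
Log2 fold change of 7 members by edgeR with all 6 libraries (black) and with libraries left out; blue symbols leave out WT libraries and orange symbols knockout libraries. Pias1 stays between 0.99 and 1.21 when any 1 library is left out, while Sumo3 moves from -1.69 to -0.49 and Rnf4 and Pias4 change sign.

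The wider spread of WT libraries was not particular to these genes. The ratio of the highest to the lowest WT library had a median of 2.21 over all genes tested, against 1.39 in the knockout, and 83.1% of genes spread more in WT. Of the 7 tested members, 5 did so. The exceptions were Pias1 and Pias2, with ratios of 1.27 in WT and 1.36 and 1.34 in the knockout.

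The rest of the pathway was read from a list of 25 further genes of SUMO conjugation, removal and binding, all of them counted and 24 tested. By edgeR 0 passed in either direction, and 0 by DESeq2 and limma voom. At an unadjusted p under 0.05 there were 3, all lower in the knockout, against 9.19% of all genes on that side. Of the 24, 10 had positive and 14 negative log2 fold changes, between -1.07 and 0.77, with a median of -0.08.

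The 3 genes were Trim28, Rangap1 and Mul1. Trim28, a co-repressor with SUMO ligase activity, stood at 208, 170 and 129 CPM in WT and 95.5, 93.7 and 95.8 CPM in the knockout (log2 fold change -0.83, SE 0.26, edgeR adjusted p 0.228). Rangap1, known as the first SUMO target, stood at 221, 317 and 229 CPM in WT and 169, 111 and 159 CPM in the knockout (-0.80, SE 0.28, adjusted p 0.239). Mul1, a mitochondrial ligase, stood at 13.4, 40.8 and 14.1 CPM in WT and 9.33, 10.6 and 11.2 CPM in the knockout (-1.07, SE 0.47, adjusted p 0.303). Of the 24 genes, 7 had groups that did not overlap, against 23.6% of all genes. Lower in the knockout were these 3 and Trim27 (11.3% of all genes), and higher were Senp2, Zmiz2 and Zfp451 (12.3% of all genes). For Mul1 WT replicate 2 lay far above the other WT libraries.

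Of the 6 Senp proteases, Senp7, which trims SUMO chains, had a value of 0.77 (SE 0.35, edgeR adjusted p 0.317), and the other Senp genes lay between -0.49 and 0.41. Pias3, the remaining PIAS ligase, had a log2 fold change of -0.42 (SE 0.37, edgeR adjusted p 0.590).

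**Figure D4:**
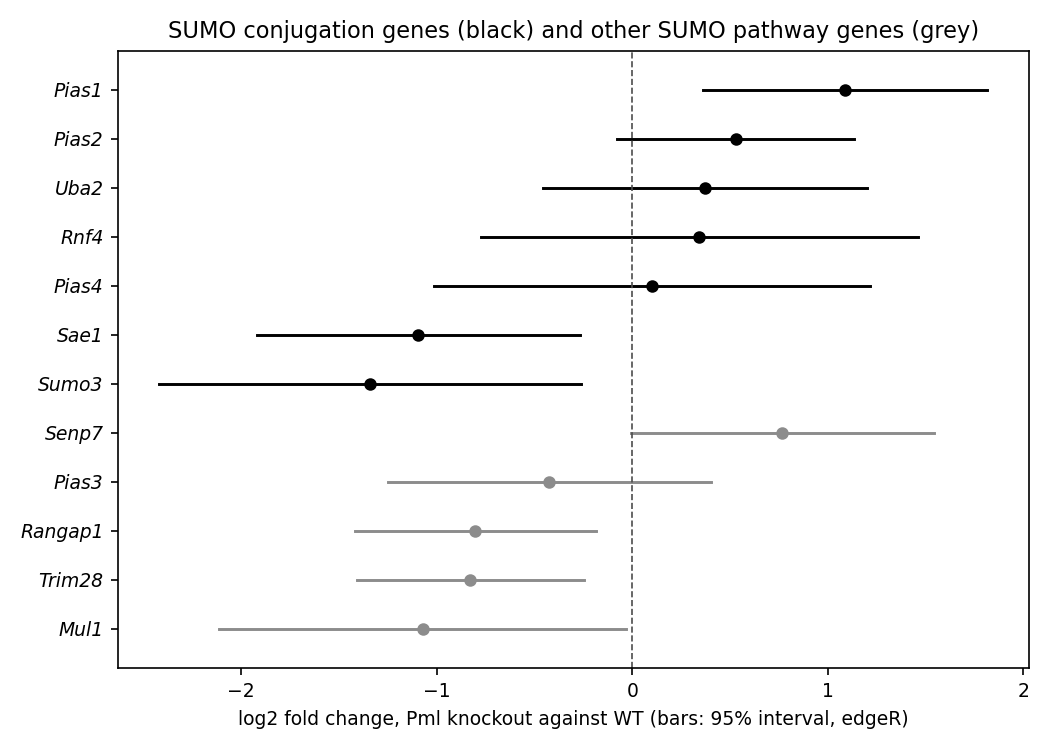
Log2 fold change of the 7 tested members (black) and of the 5 other SUMO pathway genes whose values are given (grey) in Pml knockout against WT by edgeR; bars are 95% intervals of single genes, not adjusted for the number of genes. The intervals of Pias1, Sae1, Sumo3, Rangap1, Trim28 and Mul1 leave out 0, and none of the genes passed after adjustment.

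The members did not vary as one group across the libraries. Over the 6 libraries, log2 CPM of Sumo3 and Sae1 had a Pearson r of 0.986, and Sumo3 and Uba2 one of -0.917. These values describe 6 shared libraries in which WT replicate 2 is extreme. Pias1 and Pias2 had an r of 0.807, and Pias4 had no r above 0.511 with another member. Among tested genes of at least 20 CPM on average, those most like Sumo3 over the 6 libraries were Slc39a11 and C330006A16Rik (r of 0.998 and 0.996), and the list for Pias1 was led by Gng12 (0.995). For Sae1 they were Glrx3 and Sf3b2, for Uba2 Vma21 and Fbxo45, for Pias2 Tnik and Slitrk5, for Rnf4 Mrpl39 and Lztr1, and for Pias4 2010320M18Rik and Zbtb18. For all members but Pias4, whose best match had an r of 0.958, the best match was above 0.99, found among 6136 or 6137 candidate genes over 6 libraries.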

How the data were processed

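Polyadenylated RNA of 6 neurosphere samples was measured with a 3′ tag kit (RNA integrity number above 7, 20 to 24 PCR cycles, per the labels' protocols). FastQC, HISAT2, HTSeq, edgeR and the build mm10 are named in the submitters' processing notes. Their versions, the annotation and how strand was counted: not given in the sources used here. Deposited were whole-number counts for each gene symbol, made by the authors. The table also holds the authors' normalized counts, a rounded score that was not used here. Per the file headers it gives the authors' log2 fold changes, p-values and adjusted p-values, used only where named as theirs. Per-sample columns that could not be matched to a sample numbered 0.

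Counts were fitted in R 4.3.3 with edgeR 4.0.16 (default filter, minimum count 10 and minimum total count 15, TMM factors, robust quasi-likelihood F test, no covariate), with Benjamini-Hochberg adjustment over 11317 genes. CPM use the TMM factors. SE is the log2 fold change divided by the square root of F, and log2 CPM used a prior count of 2. DESeq2 1.42.0, limma 3.58.1 voom and the other alternatives are in the closing section. The procedure was tested on simulated data with the same spread in both genotypes. That cannot test its calls where WT libraries vary more than knockout libraries. Shares were compared by exact permutation. Copies were found with blastn 2.17.0 in GENCODE M21 (GRCm38, the assembly that mm10 names). Reads carry no named molecular identifiers, so the intervals of the pooled Sumo2 ratio and of shares, and the floors, cover counting error only. The intervals of log2 fold changes come from the edgeR fit and include the spread between libraries. No pair of replicates agreed within sampling noise (chi-square per degree of freedom of 9.76 or more).

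Named with values by rule were Pml, all members and pathway genes with an unadjusted p under 0.05, and for each member the 2 genes with the highest correlation; some named by it are not reported here. Values of Senp7 and Pias3 are printed outside that rule and were chosen after they were seen. Members and lists were chosen with earlier results of these data known.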

Additional observations from a re-analysis of the deposited data

How the results depend on the processing

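The 7 tested members were refitted under 16 alternatives each. Pias1, Pias2, Sumo3 and Sae1 kept their direction in all 16, with ranges of 0.99 to 1.54, 0.38 to 0.96, -1.69 to -0.20 and -1.35 to -0.39 (log2). Sumo3 and Sae1 passed by voom with library quality weights (-0.99, adjusted p 0.0401, and -0.93, adjusted p 0.0304) and without WT replicate 3. With single libraries left out the ranges were -1.69 to -0.49 for Sumo3, -1.35 to -0.58 for Sae1, 0.097 to 0.92 for Uba2, -0.23 to 0.36 for Pias4 and -0.083 to 0.66 for Rnf4. Pias4 changed sign without WT replicate 1 (-0.23) and without knockout replicate 2 (-0.18), and Rnf4 without WT replicate 2 (-0.083). Without WT replicates 1 and 2 together, where the lone WT library is assumed to vary like the others, Pias4 was at -0.21, Rnf4 at -0.048 and Uba2 at -0.31. Library totals moved the median of all genes by 0.44, and with them Sumo3 was at -0.75 and Pias1 at 1.54; the direction of each member held.

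Over all genes, 1 was called by the edgeR fit. The count was 0 with RLE factors, library totals, a minimum of 5 CPM and voom, 3 with no count filter, 328 by DESeq2, 1242 with quality weights and 114 without WT replicates 1 and 2. With single libraries left out it ran from 0 to 1425, the highest without WT replicate 3. Pathway genes called numbered 2 with quality weights (both lower, Trim28 among them) and 0 to 2 with single libraries left out, where Trim28 (lower) and Senp7 (higher) passed without WT replicate 3. The causes were not tested. The 3 share comparisons kept their direction under every alternative, and 3 libraries a group cannot take them below 0.1.

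With the replicate number as a block, 2 genes were called (1 higher, 1 lower) and 0 members. The labels do not state that the numbers pair the samples, so they were not taken to. Deviations of same-numbered libraries correlated at -0.003, 0.07 and 0.19. WT replicates 1 and 2 correlated best with another number and WT replicate 3 with its own. Deviations of 3 libraries from their mean sum to 0, so these values cannot decide on a pairing. Counts of 12 reads or fewer in WT replicate 2 limit the precision of Sumo2, Pias1, Pias4 and Rnf4 there. Rnf4 was low there after scaling to library size too, at 7.19 CPM against 47.0 and 44.7 in WT replicates 1 and 3.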

Other observations

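A pair of other rows in the table hold sequence of the Sumo2 transcript, and both were chosen after their values were seen. Mir684-1 (chromosome 2, 80628705 to 80628790, minus strand, GRCm38), annotated as a microRNA gene, matches a coding transcript of Sumo2 over 85 bases at 100% identity, ending 30 bases before the transcript end. It was covered by 67, 18 and 32 reads in WT replicates 1, 2 and 3 and by 43, 43 and 31 in the knockout replicates, more than Sumo2 itself in all 6. In CPM that is 19.9, 14.4 and 7.26 against 6.47, 7.09 and 4.62 (log2 fold change -1.18, SE 0.47, edgeR adjusted p 0.270). The genotypes did not overlap, as for 11.3% of all genes tested on this side. Samd8, a sphingolipid synthase relative on chromosome 14, matches Sumo2 over 532 bases at 92.7% identity and was covered by 222, 157 and 371 reads in WT and by 662, 517 and 476 in the knockout (log2 fold change -0.10, edgeR adjusted p 0.893). In the annotation Mir684-1 also overlaps 2 protein-coding genes with rows of their own, Dusp19 and Nup35. From which gene the reads of the Mir684-1 and Samd8 rows came was not tested.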
